A study of Mus musculus with 5 samples.

Results

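The 10 genes described here are 3 transcription factors of the FOXO family (Foxo1, Foxo3 and Foxo4) and 7 genes long known as their targets (Cdkn1b, Ccng2, Bcl6, Sesn1, Sesn3, Fbxo32 and Txnip), out of 23478 genes counted in sorted lung cells of the mouse. They were taken by symbol, from a list drawn up with earlier results of these data known, and all 10 passed the filter on low counts, as did 15298 genes in all. The cells were GFP-positive lung cells sorted on P6 from pups that were injected with 100 µg tamoxifen on each of P0 and P1. All pups carried the Gli1-CreERT2 driver, which is active in Gli1-expressing mesenchymal cells, and the Rosa26-eGFP reporter that Cre switches on. The 2 control libraries came from mice with 1 floxed and 1 wild-type Igf1r allele, and the 3 Igf1r-deleted libraries, called mutants, from mice with both alleles floxed, so the control cells could themselves lose 1 copy of the gene. Mice of both sexes on a mixed background were used, and the number of pups behind each library is not given in the sources used here. Nothing states that the libraries of a group came from separate animals, so the p-values measure the spread between these libraries, which may be partly technical.

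FOXO factors are the transcriptional end of insulin and IGF signaling. When receptors such as IGF1R activate PI3K and AKT, AKT phosphorylates FOXO proteins, which then bind 14-3-3 proteins and leave the nucleus, and when the kinase is quiet they return and switch on genes that slow the cell cycle, lower growth signaling, break down protein and limit oxidative stress. This control acts on the protein, and mRNA counts do not show where the FOXO proteins were in the cell.

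The libraries held 35116766 to 37597857 counts, and levels are given as CPM (counts scaled to a common library size of 1e6) after TMM scaling. Igf1r, the targeted gene, had 324 CPM in each control versus 140, 177 and 194 CPM in mutant replicates 1, 2 and 3, lower in every library with both alleles floxed. Its log2 fold change was −0.93 (standard error, SE, 0.14, edgeR adjusted p = 0.354). Here and below, edgeR adjusted p is the Benjamini-Hochberg adjusted value of edgeR's quasi-likelihood test. The SE is worked back from that test, as the size of the log2 fold change divided by the square root of the F statistic. Control replicate 1 stood apart, differing from the other libraries by 50.7 to 133 times the counting noise (as a chi-square statistic divided by its degrees of freedom). Control replicate 2 and mutant replicate 1 differed by 20.7 times, less than any pair of the same genotype (23.2 to 50.7). The fibroblast markers Col1a1, Col1a2, Col3a1, Pdgfra, Tcf21 and Fn1 were abundant, with a sum of 42338 and 41763 CPM in the controls versus 28799 to 40723 CPM in the mutants. The 8 epithelial markers summed to 346 to 807 CPM over the 5 libraries, the 6 endothelial markers to 222 to 631 CPM and the 6 hematopoietic markers to 181 to 477 CPM, and no marker was at 0 in any library. The part of these other cells in the results below was not tested, and in sorted bulk RNA fewer cells of a type cannot be told apart from less RNA per cell.

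All 10 genes had a lower mean in the mutants. Their median log2 fold change was −0.52, against 0.015 for all genes tested, of which 47.7% were lower. With edgeR's quasi-likelihood test no gene of the set passed an adjusted p of 0.05 (0 of 10, as for 0% of all genes tested), and 7 of 10 had an unadjusted p-value under 0.05, each lower in the mutants, against 6.75% of all genes tested that were lower and 5.65% that were higher at that threshold. These 7 were Foxo1, Foxo3, Ccng2, Bcl6, Sesn1, Fbxo32 and Txnip. Over all genes the test gave 1032 lower and 865 higher at that threshold with TMM, and 744 lower and 1343 higher with library totals in its place, where 4 of the 10 passed (Foxo3, Sesn1, Fbxo32 and Txnip), against 4.86% of all genes that were lower. For 6 of the 10 every mutant lay below both controls, which was so for 14.9% of all genes tested. DESeq2's Wald test passed 2 of the 10 at an adjusted p under 0.05, Foxo3 and Txnip, against 0.935% of all genes tested that it called lower, and edgeR with the replicate number as a block passed 1, Txnip, against 0.673%. No control has the number 3, so mutant replicate 3 does not enter the genotype difference of the block fit. DESeq2 gave no adjusted p for 2970 of the genes tested, and the 0.935% counts them as not called. A criterion modelled on the study's methods, applied here to the edgeR fit, took log2 fold changes of 0.5 or more in size whose unadjusted p was under 0.05, for genes above a CPM of 1 in 50% or more of the libraries of 1 genotype. It was met by 5 of the 10, against 5.83% of all genes tested in either direction and 3.67% on the lower side.

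The size of these differences depended on control replicate 1. It had the highest level of all 5 libraries for 9 of the 10 genes, a count whose share over all genes was not taken. It was above control replicate 2 for 9 of 10, against 50.3% of all genes tested. Control replicate 2 lay nearer to the mutant mean than control replicate 1 did for 9 of 10, which was so for 66.7% of all genes tested. Without control replicate 1 the median log2 fold change was −0.18 and 2 of the 10, Foxo3 and Txnip, had an unadjusted p-value under 0.05 in edgeR's test (1.61% of all genes were then lower at that threshold). Without control replicate 2 the median was −0.80 and 9 of 10 passed, against 7.89% of all genes that were then lower. Of the 10, 3 (Foxo3, Sesn1 and Txnip) then had an adjusted p under 0.05 in edgeR's test, against 0.273% of all genes. In both of these fits the control group is 1 library, which is assumed to vary like the mutants, since they alone supply the spread. Control replicate 2 on its own was above every mutant for 6 of the 10, against 23.1% of all genes tested. These are the same 6 whose genotypes did not overlap. Control replicate 2 was the lower control for each, so this count adds nothing to the earlier one.

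**Figure D1:**
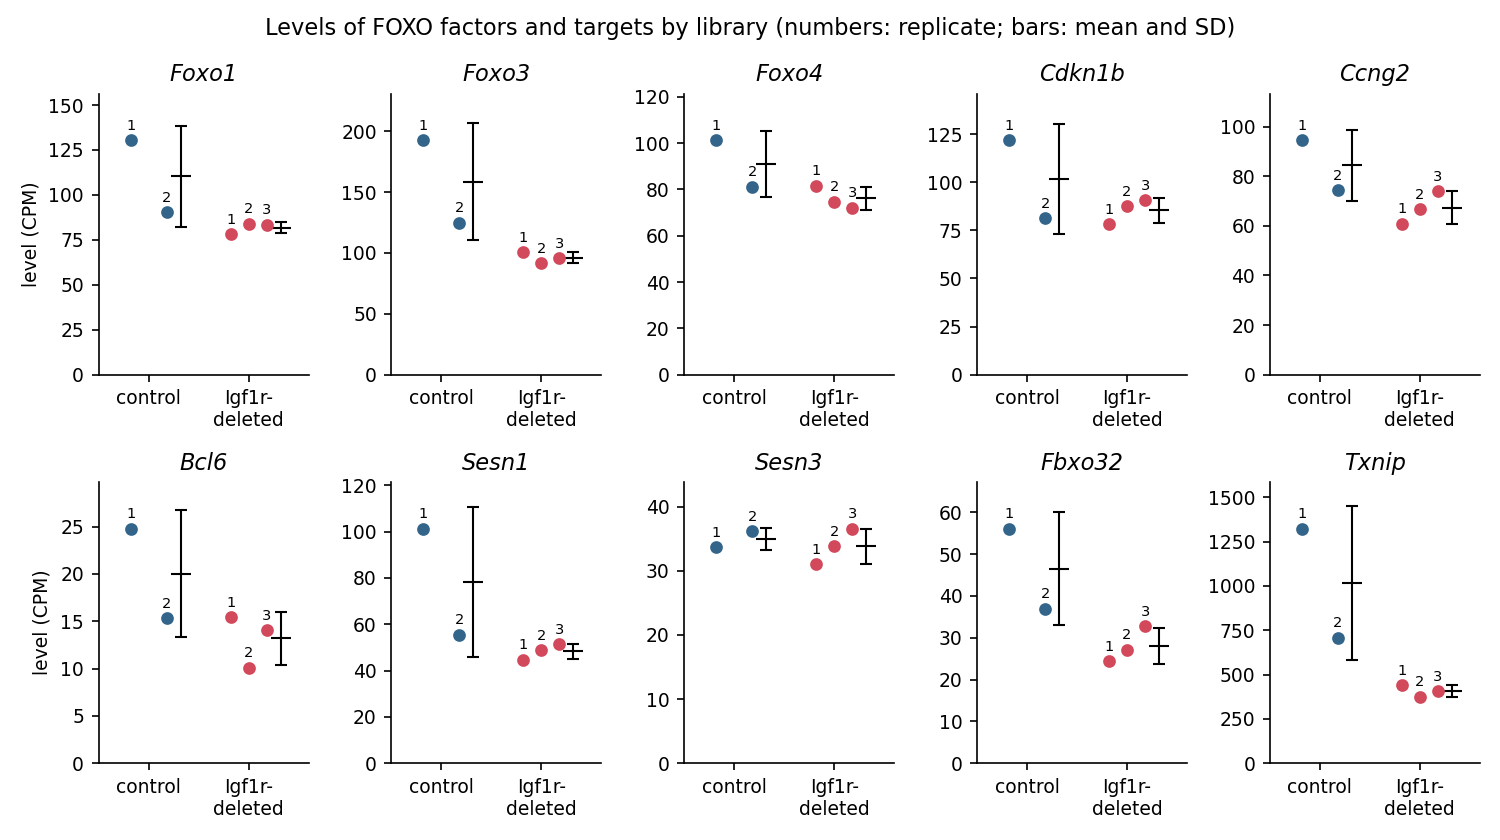
Level (CPM, linear axes from 0) of each of the 10 genes in the 2 control (blue) and 3 Igf1r-deleted (red) libraries, with replicate numbers and the mean and SD of each genotype beside the points. Control replicate 1 is the highest point in every panel but that of Sesn3, and the mutants lie below both controls for Foxo1, Foxo3, Ccng2, Sesn1, Fbxo32 and Txnip.

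Of the factors, Foxo3 differed most. FOXO3 drives cell cycle arrest and cell death genes in many tissues. In mm10 the gene spans 42181841 to 42276755 of chromosome 10 (minus strand). It had 192 and 125 CPM in the controls versus 101, 91.7 and 95.7 CPM in mutant replicates 1, 2 and 3, so that the mutants were close to each other and below both controls. The means were 159 ± 47.8 CPM (SD, n = 2) in the controls and 96.1 ± 4.54 CPM (SD, n = 3) in the mutants, 39.5% lower. The log2 fold change was −0.72 (SE 0.17, edgeR adjusted p = 0.354, unadjusted p = 0.00384), and DESeq2's Wald test gave an adjusted p of 0.0220. Leaving out control replicate 1 gave −0.38, and leaving out control replicate 2 gave −1.01.

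Foxo1, whose product is the main FOXO factor of insulin-sensitive tissues, spans 52268336 to 52353221 of chromosome 3 (plus strand). It had 130 and 90.4 CPM in the controls versus 78.1, 83.9 and 83.4 CPM in the mutants. The genotypes did not overlap, but control replicate 2 was closer to the mutants than to the other control. The log2 fold change of −0.43 (SE 0.15, edgeR adjusted p = 0.364, unadjusted p = 0.0254) became −0.15 without control replicate 1. An antisense gene, Gm20402, covers 7.78% of the exon length of Foxo1, and with no word on whether counting used strand, reads there cannot be assigned to either.

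Foxo4, the X-linked factor of the family (chromosome X, 101254528 to 101260873, plus strand), had 101 and 81.1 CPM in the controls versus 81.6, 74.8 and 72.2 CPM in the mutants. Mutant replicate 1 lay above control replicate 2, so the genotypes overlapped. Foxo4 had a log2 fold change of −0.26 (SE 0.12, edgeR adjusted p = 0.431). Foxo6, the other member of the family and best known from brain, was low at 2.49 to 3.84 CPM in the 5 libraries, with overlapping genotypes (log2 fold change 0.15, SE 0.28).

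Per kilobase of exon the order of the factors was Foxo4, Foxo3 and Foxo1. Foxo4 had 29.0 and 23.3 CPM per kilobase in the controls, Foxo3 had 25.4 and 16.5, and Foxo1 had 15.0 and 10.4. The control ranges of Foxo4 and Foxo3 overlapped. In the mutants they did not, with 20.7 to 23.4 CPM per kilobase for Foxo4 against 12.1 to 13.3 for Foxo3 and 9.02 to 9.68 for Foxo1. Among the targets Txnip stood far above the rest on this scale, with a mean of 325 CPM per kilobase in the controls and 131 in the mutants. Cdkn1b (22.3 in the controls), Sesn1 (19.7) and Ccng2 (15.5) were of the order of the factors, and the control ranges of these 3 overlapped with their neighbors in rank. Fbxo32 was lower at 6.66 CPM per kilobase. Bcl6 (2.99) and Sesn3 (2.29) were the lowest, and their control ranges overlapped.

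Genes were also ranked by how closely their log2 CPM profile over the 5 libraries, centered on its mean, followed that of each factor, among 13339 genes with a mean of at least 1 CPM. The nearest to Foxo3 was E130309D14Rik (root mean square difference 0.020 log2 units), then Pik3r1 (0.042), which encodes the p85α subunit of PI3K, and Pmel (0.048). Nearest to Foxo1 were Pgm2l1 (0.0094), Zfp212 (0.025) and D230025D16Rik (0.036), and nearest to Foxo4 were Gnptg (0.014), Tmem242 (0.018) and Ehbp1 (0.019). Within the set, the nearest to Foxo1 was Ccng2 (0.096, rank 81 of 13339), the nearest to Foxo3 was Sesn1 (0.13, rank 85) and the nearest to Foxo4 was Foxo1 (0.14, rank 1714), so that many genes outside the set were nearer. With 5 libraries many genes share a profile, and these distances are a description.

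The RefSeq promoter table (GRCm38.p6, the assembly behind mm10) held 10 windows for 8 of the 10 genes, each from 250 bases before to 50 bases after an annotated start. They were searched on both strands for the core of the FOXO binding element, GTAAACA, and for that of the insulin response sequence, CAAAACA. The first was found in 2 of the 10 windows, against 3.65% of all 32851 windows, and the second in 1 of 10, against 6.28%. These windows are shown because they are those of the set with a match. No match to either core overlapped a match to the other. The matches of Txnip and Ccng2 lie 121 to 115 and 16 to 10 bases before the start, and that of Sesn1, on the opposite strand, 23 to 29 bases after the first of its 2 starts. The sequences are written 5′ to 3′ on the plus strand, which is the strand of all 3 genes, with the core in capitals. The RefSeq starts of Ccng2 and Sesn1 lie downstream of the GENCODE gene starts given below, so these stretches fall inside the genes as GENCODE draws them.
Txnip, chr3:96557707-96557956, the 250 bases before the start: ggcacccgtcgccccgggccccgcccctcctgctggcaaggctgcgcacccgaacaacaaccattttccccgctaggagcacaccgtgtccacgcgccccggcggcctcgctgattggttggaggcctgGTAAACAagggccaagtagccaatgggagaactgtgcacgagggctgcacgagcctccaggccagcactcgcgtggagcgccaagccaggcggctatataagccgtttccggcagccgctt
Ccng2, chr5:93267323-93267572, the 250 bases before the start: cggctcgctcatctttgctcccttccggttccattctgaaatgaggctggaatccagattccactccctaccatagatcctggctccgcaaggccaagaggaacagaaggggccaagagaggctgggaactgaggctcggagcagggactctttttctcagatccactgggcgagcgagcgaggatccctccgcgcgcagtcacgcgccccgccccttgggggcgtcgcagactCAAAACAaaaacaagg
Sesn1, chr10:41810585-41810613, around the match: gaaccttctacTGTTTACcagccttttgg
A match is only a run of letters. The windows of Foxo1, Foxo3, Cdkn1b, Bcl6 and Sesn3 held neither core.

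Txnip, whose promoter is shown above, had the largest difference of the set. TXNIP binds and inhibits thioredoxin and restrains glucose uptake. The gene lies on chromosome 3 from 96557957 to 96561883 on the plus strand. It had 1322 and 707 CPM in the controls versus 441, 375 and 407 CPM in mutant replicates 1, 2 and 3. Control replicate 1 was 0.90 log2 units above control replicate 2, which was itself 0.80 above the mean of the mutants, and all 3 mutants lay well below both. The means were 1014 ± 435 CPM (SD, n = 2) and 408 ± 33.1 CPM (SD, n = 3). That is 59.8% lower, with a log2 fold change of −1.31 (SE 0.24, edgeR adjusted p = 0.354, unadjusted p = 0.000813, the 24th smallest of 15298 genes). DESeq2's Wald test gave an adjusted p of 6.37e-05. Leaving out control replicate 1 gave −0.80 and leaving out control replicate 2 gave −1.71. The antisense gene Gm15441 covers 19.4% of the exon length of Txnip, with the same limit as for Foxo1.

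Fbxo32 encodes atrogin-1, a ubiquitin ligase subunit known from muscle wasting, and lies on chromosome 15 from 58175879 to 58214932 on the minus strand. It had 56.0 and 36.9 CPM in the controls versus 24.3, 27.1 and 32.7 CPM in the mutants. Every mutant was below both controls, with mutant replicate 3 nearest to control replicate 2. The log2 fold change was −0.73 (SE 0.20, edgeR adjusted p = 0.354, unadjusted p = 0.00712), and −0.40 without control replicate 1. DESeq2's Wald test gave an adjusted p of 0.0603. The antisense gene Gm15943 covers 2.67% of its exon length.

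The sestrins are stress proteins that restrain mTORC1, and the 2 in the set had unlike values. Sesn1 (chromosome 10, 41809935 to 41908424, plus strand) had 101 and 55.4 CPM in the controls versus 44.6, 48.8 and 51.3 CPM in the mutants. Control replicate 1 was far above the other 4 libraries, which ran from 44.6 to 55.4 CPM. The log2 fold change of −0.70 (SE 0.23, edgeR adjusted p = 0.354, unadjusted p = 0.0173) became −0.20 without control replicate 1. Sesn3 (chromosome 9, 14275067 to 14333101, plus strand) had 33.7 and 36.2 CPM in the controls versus 31, 33.9 and 36.5 CPM in the mutants, so that the genotypes overlapped fully. Its log2 fold change was −0.048 (SE 0.11, edgeR adjusted p = 0.868), and 0.027 when library totals were used in place of TMM. Whether Sesn1 and Sesn3 differed in their response was not tested.

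The 3 targets of the cell cycle and of transcription had smaller or less even differences. Ccng2, which encodes the atypical cyclin G2 that holds cells out of the cycle (chromosome 5, 93267257 to 93276231, plus strand), had 94.4 and 74.3 CPM in the controls versus 60.9, 66.7 and 74.1 CPM in the mutants. The genotypes did not overlap, but control replicate 2 and mutant replicate 3 were almost equal. This was a log2 fold change of −0.33 (SE 0.14, edgeR adjusted p = 0.398, unadjusted p = 0.0468).

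Bcl6, a transcriptional repressor, was the target with the fewest counts, 401 to 860 per library (chromosome 16, 23965052 to 23988852, minus strand). It had 24.8 and 15.3 CPM in the controls versus 15.4, 10.1 and 14.0 CPM in the mutants. Mutant replicate 1 was level with control replicate 2, so the genotypes overlapped. The log2 fold change of −0.60 (SE 0.25, edgeR adjusted p = 0.398, unadjusted p = 0.0444) was −0.22 without control replicate 1 and −0.45 without mutant replicate 2.

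Cdkn1b, which encodes the cyclin-dependent kinase inhibitor p27 (chromosome 6, 134920401 to 134925513, plus strand), had 122 and 81.3 CPM in the controls versus 78.0, 87.4 and 90.7 CPM in the mutants. Control replicate 2 was within the range of the mutants. Its log2 fold change was −0.25 (SE 0.17, edgeR adjusted p = 0.558), and it turned to 0.065 without control replicate 1.

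**Figure D2:**
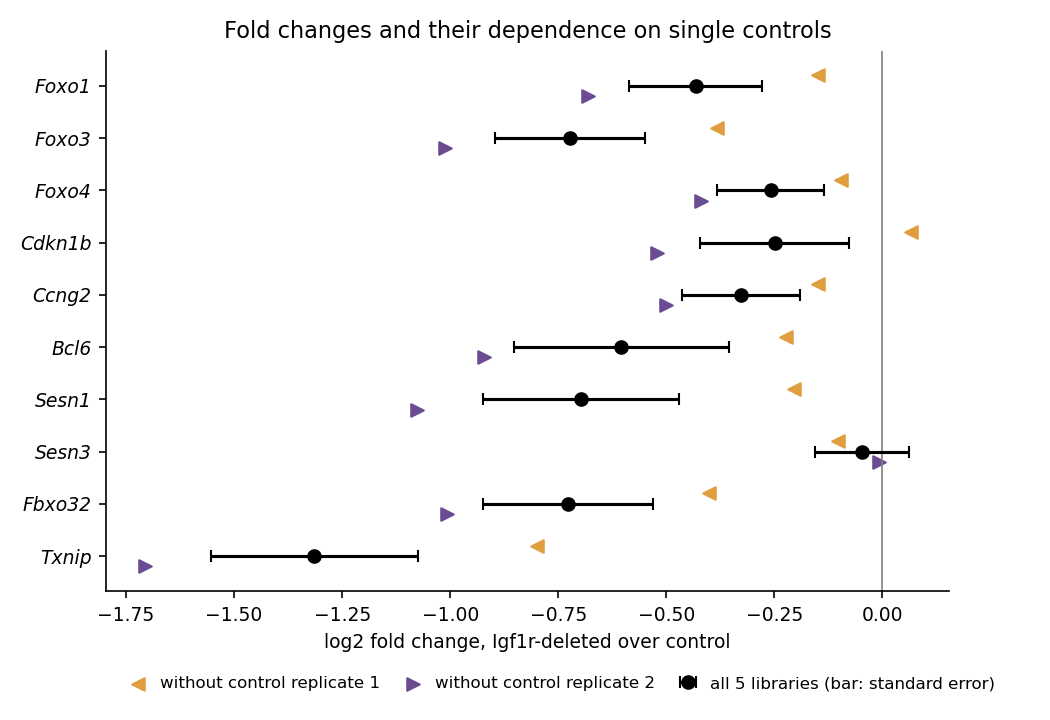
Log2 fold change of each gene, Igf1r-deleted over control, with its standard error (black), and the same fold change without control replicate 1 (orange) or without control replicate 2 (purple). All 10 black points are below 0, and without control replicate 1 those of Foxo3 (−0.38), Fbxo32 (−0.40) and Txnip (−0.80) remain the farthest from 0.

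Close relatives of the 10 genes were looked up from a list of 11. Of these, 7 were lower and 4 higher in the mean of the mutants (median log2 fold change −0.30), and with edgeR's quasi-likelihood test 0 had an adjusted p under 0.05 and 4 an unadjusted p under 0.05, all 4 lower, against 6.75% of all genes tested. Without control replicate 1 the median was −0.082. Arrdc4, an α-arrestin like Txnip and known to respond to glucose with it, had 66.6 and 56.7 CPM in the controls versus 37.7, 35.1 and 41.4 CPM in the mutants. Here the controls were close and all mutants well below them (log2 fold change −0.69, SE 0.12, edgeR adjusted p = 0.354, DESeq2 adjusted p = 0.000720). The other α-arrestin genes overlapped between the genotypes, with log2 fold changes of −0.39 for Arrdc1, −0.32 for Arrdc2 and 0.034 for Arrdc3. The sign for Arrdc2 turned without control replicate 1 and that for Arrdc3 without control replicate 2.

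The relatives of Cdkn1b stood lower. Cdkn1a, which encodes p21, had 130 and 84.4 CPM in the controls versus 78.7, 61.3 and 66.0 CPM in the mutants (log2 fold change −0.64, SE 0.19, and −0.30 without control replicate 1). Cdkn1c, which encodes p57, had 434 and 368 CPM versus 315, 285 and 296 CPM (log2 fold change −0.42, SE 0.11, edgeR adjusted p = 0.354, DESeq2 adjusted p = 0.0390). For both, every mutant was below both controls. Sesn2, the other sestrin, had 17.2 and 17.7 CPM versus 13.3, 14.3 and 14.9 CPM (log2 fold change −0.30, SE 0.12), again with no overlap. Ccng1 (log2 fold change −0.090), Bcl6b (0.13) and Fbxo25 (0.25), the relatives of Ccng2, Bcl6 and Fbxo32, overlapped between the genotypes.

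A wider list held 38 other genes known as FOXO targets, of which 34 passed the filter on low counts. The liver genes G6pc, Pck1 and Igfbp1 and the death ligand gene Fasl did not. Of the 34, 27 were lower and 7 higher in the mean of the mutants (median log2 fold change −0.26). With edgeR's quasi-likelihood test 0 of the 34 had an adjusted p under 0.05 and 12 an unadjusted p under 0.05, all 12 lower, against the 6.75% given above. The list shares Cdkn1a and Sesn2 with the close relatives. Both are among these 12 and were counted there too, so the lists are not separate. DESeq2's Wald test called 3, Pdk4, Irs2 and Gabarapl1, all lower, against 0.935% of all genes tested that it called lower. Without control replicate 1 the median was −0.14.

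Pdk4, whose product turns cells from glucose to fatty acid use, had 111 and 42.9 CPM in the controls versus 23.8, 17.5 and 20.6 CPM in the mutants. All mutants were below both controls, which themselves differed widely (log2 fold change −1.90, SE 0.35, edgeR adjusted p = 0.354, DESeq2 adjusted p = 3.74e-05). Irs2, the adaptor between the insulin and IGF receptors and PI3K, had a log2 fold change of −0.83 (SE 0.18). These values were −1.07 for Pdk4 and −0.51 for Irs2 when control replicate 1 was left out. A pair of autophagy genes, Gabarapl1 (199 and 162 CPM versus 123, 126 and 138 CPM) and Map1lc3b (350 and 287 CPM versus 241, 220 and 251 CPM), had log2 fold changes of −0.48 (SE 0.12) and −0.43 (SE 0.12). For both, no mutant reached a control. The cyclin D genes, which FOXO factors are known to repress, overlapped between the genotypes, with log2 fold changes of 0.48 for Ccnd1, 0.39 for Ccnd2 and −0.018 for Ccnd3. With library totals in place of TMM none of the 3 was below 0. Control replicate 1 was the lowest library for Ccnd1 and Ccnd2, and without it the median of the 3 went from 0.39 to 0.083. The cyclin D genes, and Akt1 and Akt2 given next, were named after their values were seen.

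Genes of the kinases and cofactors that act on FOXO proteins were mostly level. Of 28, all of which passed the filter, 10 were lower and 18 higher, with a median log2 fold change of 0.060 against 0.015 for all genes. With edgeR's quasi-likelihood test 0 had an adjusted p under 0.05, and 2 an unadjusted p under 0.05, both lower, a share near the 6.75% of all genes tested. DESeq2's Wald test called 1, Sgk1, against 0.935% of all genes tested that it called lower. Akt1 had 336 and 324 CPM in the controls versus 339, 316 and 303 CPM in the mutants, and the log2 fold changes of Akt1 and Akt2 were −0.047 and 0.039. The sign for Akt1 turned with library totals.

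The exception among the kinases was Sgk1, which encodes an AKT-related kinase that also phosphorylates FOXO3. It had 129 and 75.1 CPM in the controls versus 57.7, 54.8 and 39.4 CPM in the mutants (log2 fold change −1.01, SE 0.25, edgeR adjusted p = 0.354, DESeq2 adjusted p = 0.0152), and its log2 fold change was −0.57 without control replicate 1. Sirt1, a deacetylase of FOXO proteins, had 50.9 and 46.0 CPM versus 36.1, 35.4 and 41.5 CPM (log2 fold change −0.36, SE 0.11). Both had every mutant below both controls. Xpo1, which encodes the exportin that carries FOXO proteins out of the nucleus (log2 fold change 0.27, SE 0.13), and Prmt1, a methyltransferase that acts on FOXO1 (0.31, SE 0.14), were higher in every mutant than in both controls, with unadjusted p-values of 0.0742 and 0.0623 in edgeR's quasi-likelihood test. Their log2 fold changes were 0.17 and 0.13 without control replicate 1.

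**Figure D3:**
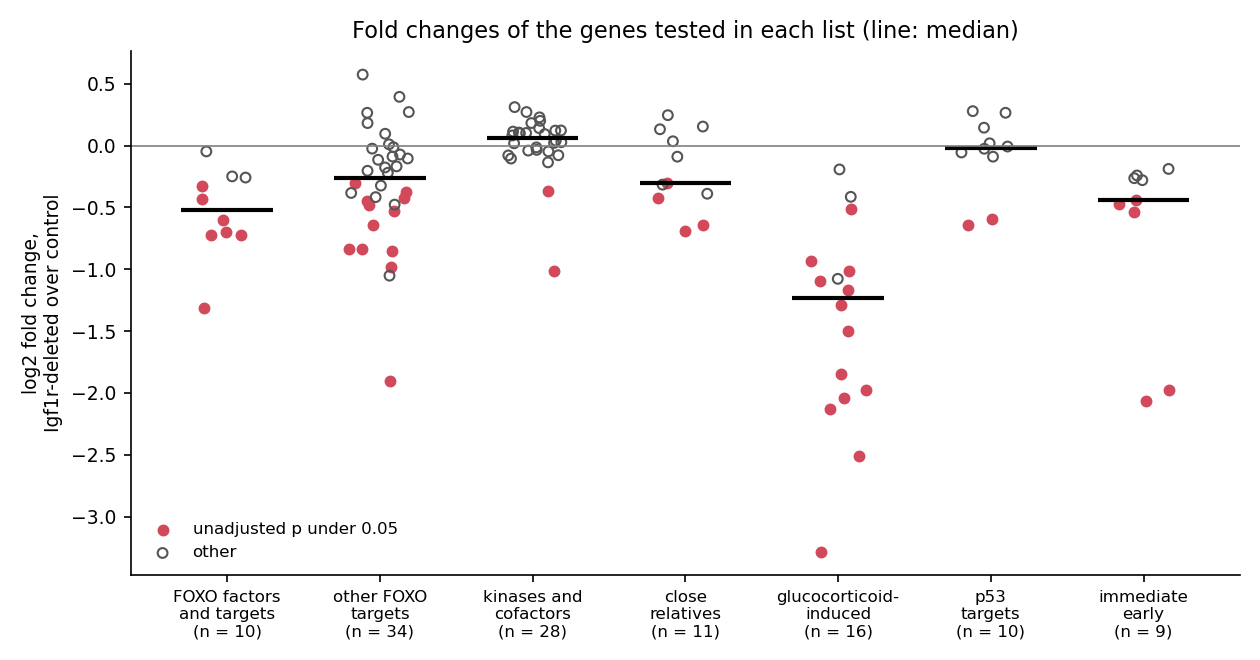
Log2 fold changes (Igf1r-deleted over control) of the tested genes of 7 lists, with filled points for an unadjusted p under 0.05 in edgeR's test and a line at each median. The medians are −0.52 for the FOXO factors and targets, −0.26 for other FOXO targets, 0.060 for kinases and cofactors and −1.23 for glucocorticoid-induced genes. A gene that belongs to several lists is drawn in each.

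Glucocorticoid-induced genes were also high in control replicate 1. Several genes named above, among them Fbxo32, Txnip, Pdk4, Sesn1, Foxo1 and Foxo3, are also known to respond to glucocorticoids in some tissues. Of a list of 16 such genes, which shares Sgk1 with the kinases, all 16 were lower in the mean of the mutants (median log2 fold change −1.23), 13 with an unadjusted p under 0.05 and 0 with an adjusted p under 0.05 in edgeR's quasi-likelihood test, while DESeq2's Wald test called 7. Of all genes tested 6.75% were lower at the unadjusted threshold and 0.935% were called lower by DESeq2. Their summed level was 5814 and 3319 CPM in the controls versus 2470, 1793 and 2105 CPM in mutant replicates 1, 2 and 3. All 16 were higher in control replicate 1 than in control replicate 2, as were 9 of the 10 FOXO factors and targets, against 50.3% of all genes tested. Klf9, for example, had 554 and 306 CPM in the controls versus 196, 150 and 182 CPM in the mutants, and Tsc22d3, which is also known as a FOXO3 target, had 649 and 222 CPM versus 134, 97.1 and 100.3 CPM. Sult1a1 and Cebpd had log2 fold changes of −1.10 (SE 0.21) and −1.50 (SE 0.30). Every mutant lay below both controls for 11 of the 16, against 14.9% of all genes tested. For Fkbp5, named after its values were seen, the genotypes overlapped, with 183 and 26.9 CPM versus 27.5, 14.6 and 12.9 CPM. Without control replicate 1 the median of the list was −0.61, and Klf9, Tsc22d3 and Cebpd had log2 fold changes of −0.80, −1.01 and −0.99. Whether glucocorticoids had a part in the levels of the FOXO factors and targets was not tested.

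**Figure D4:**
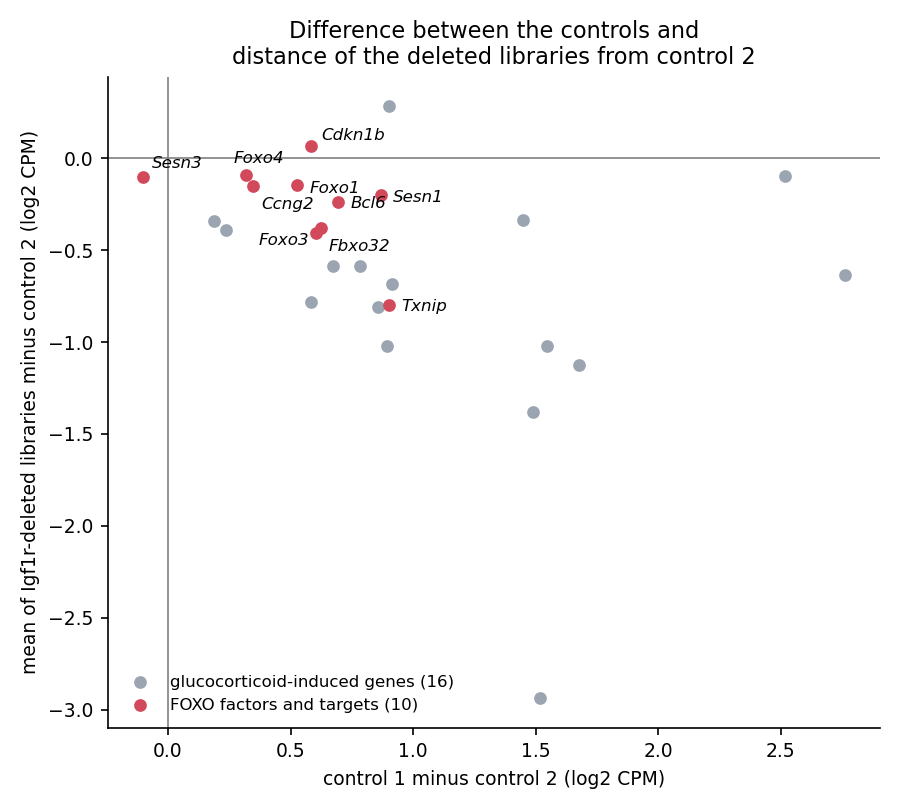
For each gene, control replicate 1 minus control replicate 2 (x axis, log2 CPM) against the mean of the mutants minus control replicate 2 (y axis, log2 CPM), for the 10 FOXO factors and targets (red) and the 16 glucocorticoid-induced genes (grey). Except for Sesn3, the red points lie right of 0, and Txnip, at 0.90 and −0.80, is the red point farthest below 0.

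Levels of cell type markers also varied among the libraries. Of 8 myofibroblast markers 3 were lower (median log2 fold change 0.26), and their most abundant gene, Tgfbi, had 1012 and 1259 CPM in the controls against 1126, 1400 and 1282 CPM. Acta2 and Tagln, contractile genes named after their values were seen, were above both controls in every mutant and lowest in control replicate 1. Acta2 had 407 and 655 CPM in the controls versus 764, 1067 and 907 CPM (log2 fold change 0.78, SE 0.23, edgeR adjusted p = 0.354, DESeq2 adjusted p = 0.0483), and Tagln had a log2 fold change of 0.59 (SE 0.22). The 3 lower markers, also named after their values were seen, were Hhip (−0.47), Aspn (−0.23) and Pdgfra (−0.18). All 3 overlapped between the genotypes. Of 6 markers of lipofibroblasts and matrix fibroblasts 5 were lower (median −0.27), with a sum of 7074 to 7206 CPM in the controls versus 5655 to 6201 CPM in the mutants. The 6 hematopoietic markers were all lower in the mean (median −0.56), and their most abundant gene, Lyz2, had 379 and 266 CPM versus 317, 254 and 142 CPM. The epithelial list, led by Sftpc (233 to 552 CPM), and the endothelial list, led by Cdh5 (58.4 to 206 CPM), were lowest in mutant replicate 3. All 8 epithelial markers were lower in the mean of the mutants (median −0.40), and 3 of the 6 endothelial markers were (median −0.071). The 6 fibroblast markers were also all lower (median −0.19). The 6 pericyte markers (median 0.015, led by Pdgfrb) and the 4 mesothelial markers (median −0.28, led by Msln) summed to 533 to 606 and 199 to 287 CPM over the 5 libraries. The part of these shifts in the levels of the FOXO factors and targets was not tested.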

How the data were processed

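RNA of GFP-sorted P6 lung cells was sequenced as 150-bp paired ends. Per the submitters' processing notes and the study's methods, the authors used Trim Galore for trimming and Bowtie2 for alignment to mm10, and deposited raw read counts per gene symbol, without normalization. Tool versions, annotation and strand setting are not given in the sources used here. Of 23478 genes, 4833 had 0 counts in every library. The libraries held 35116766 to 37597857 counts, and depth did not limit the 10 genes, whose lowest count was 401. Genes passing filterByExpr (15298) were tested with edgeR 4.0.16 (quasi-likelihood F test, TMM, genotype as the only term, R 4.3.3), with Benjamini-Hochberg adjustment over all of them. DESeq2 1.42.0 and limma 3.58.1 (voom), other scalings and filters, the replicate number as a block and leaving out each library were alternatives. The code was tested on simulated data. The members and gene lists were chosen with earlier results of these data known. CPM are TMM-scaled and log2 CPM use a prior count of 2. Gene positions, exon lengths and overlaps come from GENCODE M21 (mm10). Genes named from a list are the members, Igf1r, Foxo6, all close relatives, the 3 profiles nearest each factor, the most abundant marker, and up to 4 non-overlapping genes with the smallest unadjusted p, except where stated.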

Additional observations from a re-analysis of the deposited data

How the results depend on the processing

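The number of the 10 genes with an adjusted p under 0.05 was 0 with edgeR's quasi-likelihood test, 2 with DESeq2's Wald test and 1 (Txnip) with the replicate block, and 0 to 3 when each library was left out. The number with an unadjusted p under 0.05 was 7, became 4 with library totals, and ran from 2 to 9 when each library was left out, while over all genes this number ran from 433 of 15695 to 3183 of 15138. The median log2 fold change ran from −0.80 to −0.18 on leaving out a library, the extremes being those without control replicate 2 and without control replicate 1. Igf1r, at −0.93, was −0.94 with DESeq2's Wald test and −1.04 with the replicate block, each then with an adjusted p under 0.05. The block fit sets mutant replicate 3 aside, as no control has its number. The sign turned for Sesn3 (0.027 with library totals, −0.11 to 0.0051 on leaving out a library), Cdkn1b (−0.52 to 0.065), Foxo6 (−0.044 with the replicate block, −0.046 to 0.27), Bcl6b (−0.012 with limma voom, −0.51 to 0.41), Arrdc2 (−0.61 to 0.037) and Arrdc3 (−0.086 with the replicate block, −0.13 to 0.20). The cause was not tested. Over all genes, adjusted p-values under 0.05 numbered 0 in the main test, 199 with DESeq2's Wald test, 136 with the replicate block and 0 to 45 on leaving out a library. Same-numbered controls and mutants had deviations that correlated at 0.208 and 0.121. Control replicate 2 and mutant replicate 3, of unlike number, correlated at 0.119. With 2 controls the deviations of each mirror those of the other, so these values are not independent. Only 2 same-numbered pairs exist and nothing in the labels ties the numbers to a litter or day. The libraries are therefore taken to share only a number.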

Other observations

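A pair of further lists was examined. Of 10 targets of p53, which shares the sestrins and p21 with the FOXO factors, 6 were lower and 4 higher (median log2 fold change −0.017, and 0.055 with library totals), with 2 unadjusted p-values under 0.05 in edgeR's quasi-likelihood test and 0 adjusted. Of all genes tested 6.75% were lower at the unadjusted threshold. These 2 were Cdkn1a and Trp53inp1 (260 and 174 CPM in the controls versus 124, 140 and 168 CPM in the mutants, log2 fold change −0.59). Without control replicate 1 they were at −0.30 and −0.28. The list of 10 leaves out the sestrins, whose log2 fold changes were −0.70 for Sesn1, −0.30 for Sesn2 and −0.048 for Sesn3. It shares Cdkn1a with both the close relatives and the other FOXO targets. Ccng1 is also among the close relatives, Bbc3 among the other FOXO targets, and Mdm2 among the kinases and cofactors. Zmat3 and Bbc3 were higher in every mutant than in both controls, with log2 fold changes of 0.28 and 0.26, and of 0.079 and 0.32 without control replicate 1. Of 9 immediate early and dissociation genes all 9 were lower (median −0.44). With edgeR's quasi-likelihood test 5 had an unadjusted p under 0.05, against the same 6.75%, and 0 an adjusted one. DESeq2's Wald test called 1, against 0.935% of all genes tested that it called lower. Without control replicate 1 the median was −0.22. Junb had 3187 and 2548 CPM in the controls versus 1891, 1860 and 2178 CPM in the mutants, and Fos had 3391 and 2718 CPM versus 2244, 2091 and 2433 CPM. The heat shock genes Hspa1a and Hspa1b varied most, with 985 and 1122 CPM versus 521, 119 and 114 CPM, and 742 and 1217 CPM versus 543, 88.2 and 116 CPM.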
